A study of Mus musculus with 12 samples.

Results

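The unfolded protein response genes described here were 10 genes of the endoplasmic reticulum (ER): Hspa5, Hsp90b1, Calr, Pdia4, Sdf2l1, Dnajb9, Dnajc3, Herpud1, Edem1 and Xbp1. They were found by gene symbol in the count tables, where they made up 10 of 52535 gene entries, and all 10 were among the 14946 genes with enough reads to be tested. The cells were E14, an established mouse embryonic stem cell line, kept in medium with serum, the cytokine LIF and the kinase inhibitor pair called 2i. The series title links Bcat1, a cytosolic transaminase of branched-chain amino acids, to stem cell self-renewal and pluripotency through Ras signalling. The groups were wild type cells (WT, 2 libraries), Bcat1-KO clone 1 (2 libraries) and Bcat1-KO clone 2 (2 libraries), all E14 and all grown in that medium. The 4 libraries labelled knockout thus come from 2 clones, and how the knockout was made is not given in the sources used here.

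The unfolded protein response is the programme by which a cell adjusts the ER when unfolded proteins build up in its lumen. The sensor IRE1 cuts Xbp1 RNA so that it encodes an active transcription factor, and the sensor ATF6 is cut in the Golgi to release another. Both factors drive genes of chaperones, folding enzymes and ER-associated degradation. The sensor PERK slows translation and raises ATF4, a factor that amino acid shortage also raises through another kinase, so ATF4 targets alone do not tell ER stress from an amino acid response. Secreting cells are the usual setting for a strong response.

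Promoter sequences are shown for the members whose windows hold an exact match to a known element of this response, since the members differ in which match they hold. Windows of 300 bases, from 250 before to 50 after the RefSeq start (GRCm38.p6), were found for all 10 members and searched on both strands. The ER stress response element, ERSE, searched as CCAAT and CCACG with any 9 bases between them, was in 39 of 32851 windows (0.119%) and in those of 4 members. Hsp90b1 held it at 2 places. Each line gives 29 bases, 5′ to 3′ on the strand that holds the match, with the match in capitals.
Hspa5, chr2:34772020-34772048, plus strand: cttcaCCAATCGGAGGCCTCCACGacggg
Hsp90b1, chr10:86705633-86705661, minus strand: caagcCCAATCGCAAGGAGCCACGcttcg
Hsp90b1, chr10:86705528-86705556, plus strand: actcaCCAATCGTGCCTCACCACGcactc
Calr, chr8:84847070-84847098, plus strand: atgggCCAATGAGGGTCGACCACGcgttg
Dnajc3, chr14:118937822-118937850, plus strand: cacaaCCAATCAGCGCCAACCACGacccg

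Herpud1 differed from these members in the exact strings found. Its window held ERSE-II, searched as ATTGG and CCACG with any 1 base between them and present in 12 windows (0.0365%), and a C/EBP-ATF element, the site type bound by ATF4 with a C/EBP partner, searched as TTGCATCA and present in 294 windows (0.895%). No other member held either of these strings. The stretch of 130 bases that carries both follows, with the C/EBP-ATF element first and ERSE-II second in capitals.
Herpud1, chr8:94386299-94386428, plus strand: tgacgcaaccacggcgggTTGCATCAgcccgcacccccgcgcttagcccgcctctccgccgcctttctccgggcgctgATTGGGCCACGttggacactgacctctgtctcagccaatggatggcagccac
For comparison, the C/EBP-ATF element of Chac1, which encodes a glutathione-degrading enzyme and is a target of ATF4, is shown in 24 bases.
Chac1, chr2:119351041-119351064, plus strand: ccctgccgTTGCATCActcctgcc
A match is a string of letters in a window and does not show binding. Only exact strings were counted, so a window without a match can still hold a variant of an element. The Herpud1 stretch itself ends in CCAAT, 9 bases and CCAC, which is ERSE up to its last letter. The elements were chosen with the expression results known.

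Gene counts ranged from 11976149 to 13923262 per library, and the CPM values below are counts scaled to library size with edgeR's TMM factors. Whether replicates were grown separately is not in the labels. The p-values therefore reflect variation among these 6 libraries alone, part or all of which may be technical. Bcat1 itself was at 602 and 614 CPM in WT, at 617 and 662 in clone 1 and at 583 and 579 in clone 2, with a log2 difference of 0.01 ± 0.08 (SE) and an adjusted p of 0.977 in edgeR's quasi-likelihood test. A knockout can leave its transcript intact, in which case gene counts do not check it, so these are called the libraries labelled knockout. The 8 embryonic stem cell markers summed to 6390 and 6577 CPM in WT, to 5777 and 5901 in clone 1 and to 6204 and 6203 in clone 2. The 8 fibroblast and feeder markers summed to 23.7 and 23.9 CPM in WT, to 33.5 and 32.1 in clone 1 and to 21.0 and 20.7 in clone 2, with Pdgfrb at 16.8 to 24.5 CPM making up most of each sum. Lum, Dcn and Postn were at 0 counts in all 6 libraries, and Col3a1 was at 0 in 4. Col1a2 had 0 and 1 counts in WT, against 22 and 15 in clone 1 and 11 and 18 in clone 2 (adjusted p 0.0120 for knockout against WT). That call was lost without WT replicate 1 (0.164) or WT replicate 2 (0.0975). The marker sums thus differed between the clones and Col1a2 between the genotypes, and the part of other cell types in the differences below was not tested. The clone 1 replicates also differed more from each other than those of the other groups, with a chi-square per gene of 8.79 against 3.57 in WT and 3.27 in clone 2.

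Across the members, Xbp1 was higher in all 4 libraries labelled knockout and the abundant chaperones were level. Herpud1 was lower than WT in clone 1, while its higher values in clone 2 did not pass against WT. At an adjusted p of 0.05, 1 of 10 members passed the test of knockout against WT and was higher, where 6.36% of all genes passed, 4.25% higher and 2.11% lower. Clone 1 against WT gave 2 members higher and 1 lower, where 21.9% of all genes passed, 12.4% higher and 9.53% lower. Clone 2 against WT gave 1 member, higher, where 17.9% of all genes passed, 10.1% higher and 7.81% lower. Clone 2 against clone 1 gave 1 member, higher, where 14.3% of all genes passed, 6.62% higher and 7.71% lower. Both clone comparisons use the same WT libraries. These shares of 10 members are small enough that 1 gene moves them by 10 percentage points, so they are not read as a difference from all genes. The members' median log2 difference was -0.01 for knockout against WT, -0.02 for clone 1 and 0.12 for clone 2, beside 0.00 for all genes in each comparison. Their CPM summed to 1986 and 1935 in WT, to 2015 and 1879 in clone 1 and to 2068 and 2015 in clone 2, so the WT values lay between those of the clone 1 libraries. In bulk RNA, fewer cells expressing a gene and less RNA per cell cannot be told apart.

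Separation of the raw values was common in these libraries, for the members and for all genes. In 4 of 10 members, Xbp1, Calr, Dnajc3 and Edem1, all libraries labelled knockout lay above both WT libraries, while 35.0% of all genes did not overlap, 18.3% higher and 16.7% lower. Clone 1 did not overlap WT in 6 members, 4 higher and 2 lower, beside 59.3% of all genes, 30.6% higher and 28.8% lower. Clone 2 did not overlap WT in 7 members, 6 higher and 1 lower, beside 61.3% of all genes, 31.3% higher and 30.0% lower. The clones did not overlap each other in 6 members, 5 higher in clone 2 and 1 lower, beside 54.6% of all genes, 26.9% higher and 27.7% lower. Such separation alone is therefore not read as a result below.

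**Figure D1:**
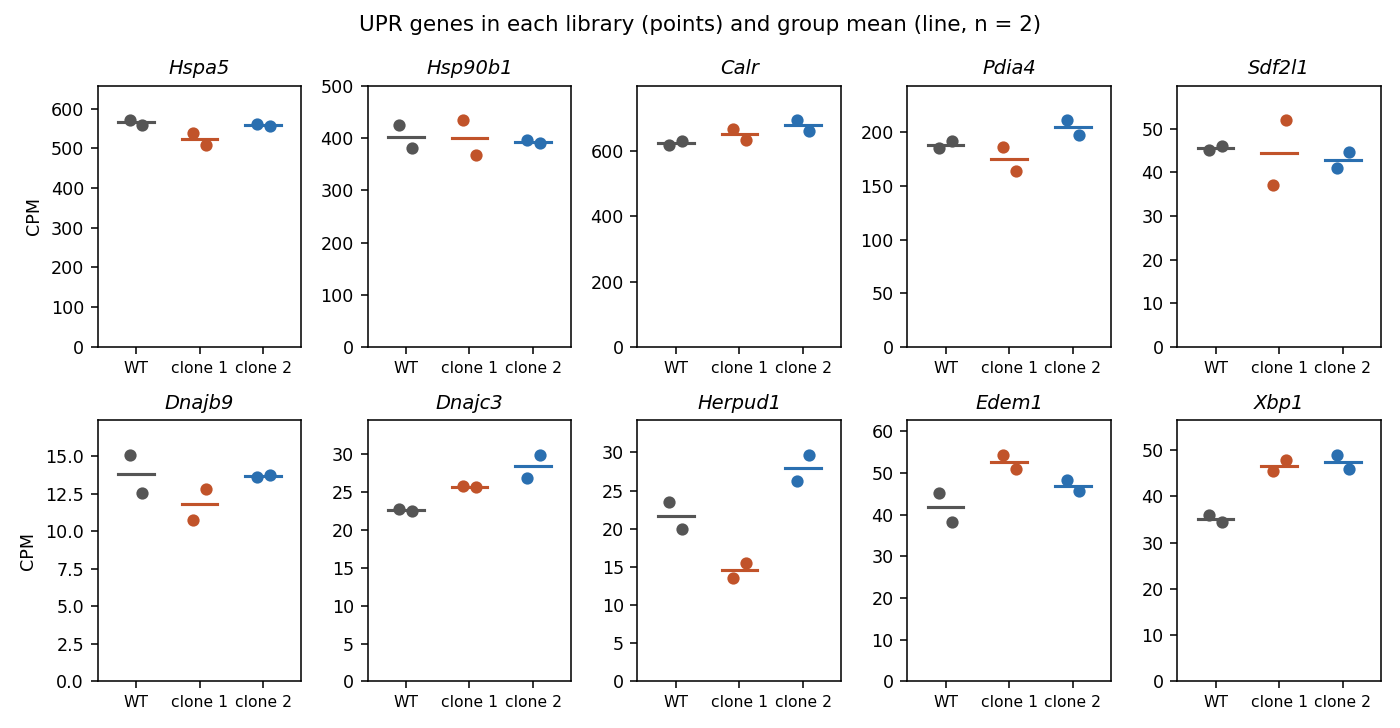
Each panel plots the CPM of 1 member (vertical axis) in the 6 libraries, with 2 points for each of WT, clone 1 and clone 2 and a line at each group mean. Xbp1 lies between 45.5 and 49.1 CPM in the libraries labelled knockout, above the WT libraries at 36.0 and 34.4, and Herpud1 is lowest in clone 1 and highest in clone 2.

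Levels per length of exon, as RPKM (CPM divided by kilobases of exon), set the members far apart. Calr was the most abundant, at 216 RPKM on average in WT and 214 to 241 over the 6 libraries. Hspa5 followed at 134, Hsp90b1 at 100.04, Pdia4 at 78.6 and Sdf2l1 at 41.1, and the ranges of neighbours in this order did not overlap over the 6 libraries. Xbp1 at 10.8, Herpud1 at 9.32, Edem1 at 6.47, Dnajb9 at 5.43 and Dnajc3 at 4.41 formed the low end, where each range overlapped that of the next gene. Calr, Hspa5, Hsp90b1, Pdia4 and Sdf2l1 thus stood above the transcription factor and the degradation genes. The ER Hsp40 genes Dnajb9 and Dnajc3 had the lowest WT means. Lengths are those of all annotated exons together, so a gene with long unused exons reads low.

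Among the members, the abundant lumenal chaperones differed little between groups. Hyou1, from the list of other ER chaperones described below, was higher in clone 2. Hspa5 (chromosome 2, 34771970 to 34777547, plus strand, GRCm38) encodes BiP, the Hsp70 of the ER lumen that holds the stress sensors inactive. It was at 571 and 560 CPM in WT, at 539 and 509 in clone 1 and at 561 and 557 in clone 2. Clone 1 lay below WT in both libraries, while clone 2 overlapped WT. The fold for knockout against WT was 0.958, with a 95% interval of 0.852 to 1.08 and an adjusted p of 0.674. For clone 1 alone it was 0.927 (0.832 to 1.03, adjusted p 0.312), and for clone 2 it was 0.988 (0.888 to 1.101, adjusted p 0.908). The upper bounds of 1.03 and 1.101 limit any rise of Hspa5 in either clone.

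Hsp90b1 (chromosome 10, 86690209 to 86705509, minus strand) encodes GRP94, the Hsp90 of the ER. Its values were 425 and 382 CPM for WT, 435 and 368 for clone 1, and 396 and 390 for clone 2. Each group overlapped the others. The fold for knockout against WT was 0.985 (0.856 to 1.13, adjusted p 0.920). Of the exon length of Hsp90b1, 10.3% overlaps a pseudogene on the other strand, 1810014B01Rik, and the strand setting of the counting is not given in the sources used here.

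Calr (chromosome 8, 84841850 to 84846934, minus strand) encodes calreticulin, a calcium-binding chaperone for glycoproteins. It was at 617 and 628 CPM in WT, at 667 and 634 in clone 1 and at 694 and 660 in clone 2. All 4 libraries labelled knockout lay above both WT libraries, by a fold of 1.07 (0.952 to 1.20) that did not pass the test (adjusted p 0.502). Neither clone passed alone, at a fold of 1.05 for clone 1 (0.938 to 1.16, adjusted p 0.5848) and 1.09 for clone 2 (0.977 to 1.21, adjusted p 0.283).

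Pdia4 (chromosome 6, 47796141 to 47813430, minus strand) encodes ERp72, a protein disulfide isomerase. Its values were 185 and 192 CPM for WT, 187 and 164 for clone 1, and 212 and 197 for clone 2. Knockout against WT gave a fold of 1.01 (0.857 to 1.183, adjusted p 0.969). Neither clone passed against WT, at a fold of 0.929 for clone 1 (adjusted p 0.413) and 1.08 for clone 2 (0.388). Clone 2 was above clone 1 by a fold of 1.17 (1.03 to 1.32), which did not pass (adjusted p 0.0969). Without the first clone 1 library the log2 difference rose from 0.22 to 0.32 and passed (adjusted p 0.00250).

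The cochaperones of BiP among the members did not pass for knockout against WT or in either clone. Sdf2l1 (chromosome 16, 17130138 to 17132383, minus strand) encodes a partner of the ER Hsp40 proteins. It was at 45.1 and 45.9 CPM in WT, at 37.0 and 52.0 in clone 1 and at 41.0 and 44.8 in clone 2. The clone 1 libraries lay on either side of WT and those of clone 2 just below it, and knockout against WT gave a fold of 0.960 (0.781 to 1.181, adjusted p 0.843). Dnajb9 (chromosome 12, 44205559 to 44210326, minus strand) encodes ERdj4, an Hsp40 induced through XBP1 that also restrains IRE1. It was at 15.1 and 12.6 CPM in WT, at 10.8 and 12.8 in clone 1 and at 13.6 and 13.8 in clone 2, with a fold of 0.921 (0.708 to 1.20, adjusted p 0.730). The clone 2 values lay inside the WT range and those of clone 1 overlapped it. Clone 1 against WT gave a fold of 0.854 (0.668 to 1.09, adjusted p 0.360).

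Dnajc3 (chromosome 14, 118937976 to 118981697, plus strand) encodes p58IPK, an ER Hsp40 described as an inhibitor of PERK and related kinases. Its values were 22.8 and 22.5 CPM for WT, 25.8 and 25.6 for clone 1, and 26.9 and 30.0 for clone 2. The 3 groups did not overlap, with WT lowest and clone 2 highest. Knockout against WT gave a fold of 1.19 (0.994 to 1.43, adjusted p 0.233), clone 1 gave 1.13 (0.945 to 1.36, adjusted p 0.325) and clone 2 gave 1.26 (1.05 to 1.503, adjusted p 0.0767). The clone 2 difference passed when either clone 1 library was left out of the shared fit (adjusted p 0.0304 and 0.0302), and in a fit of only the WT and clone 2 libraries (adjusted p 0.0367).

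The members of ER-associated degradation, Edem1 and Herpud1, passed in clone 1 but not for knockout against WT or in clone 2. In clone 1, Edem1 was higher than WT and Herpud1, described below, was lower. Edem1 (chromosome 6, 108828641 to 108859356, plus strand) encodes a lectin-like protein that passes misfolded glycoproteins to degradation, and is a target of XBP1. It was at 45.3 and 38.3 CPM in WT, at 54.4 and 51.0 in clone 1 and at 48.4 and 45.6 in clone 2. All 4 libraries labelled knockout lay above WT, the lowest of them by less than 1 CPM, and the fold of 1.19 (1.00 to 1.42) did not pass (adjusted p 0.216). Clone 1 alone rose by a fold of 1.26 (1.07 to 1.49, adjusted p 0.0402). That call did not survive leaving out either WT library (adjusted p 0.0545 for replicate 1 and 0.344 for replicate 2), clone 1 replicate 1 (0.0692) or either clone 2 library (0.0788 for replicate 1 and 0.0685 for replicate 2), nor DESeq2 (0.0867) or a fit of only the WT and clone 1 libraries (0.0711). Clone 2 gave 1.12 (0.953 to 1.33, adjusted p 0.336), and the difference between the clones did not pass either (adjusted p 0.363).

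Xbp1 was the member that passed in both clones. Xbp1 (chromosome 11, 5520659 to 5525893, plus strand) encodes the transcription factor of the IRE1 branch and is itself raised by ATF6 and by its own product. It was at 36.0 and 34.4 CPM in WT, at 45.5 and 47.8 in clone 1 and at 49.1 and 45.9 in clone 2, from counts of 466 and 466, 574 and 623, and 581 and 580. The means were 35.2 ± 1.08 CPM (SD, n = 2) in WT and 47.1 ± 1.67 (SD, n = 4) in the libraries labelled knockout, and no library of one genotype reached the range of the other. Knockout against WT gave a fold of 1.34 (1.155 to 1.55) and an adjusted p of 0.0309 in edgeR's test. Clone 1 was higher by 1.33-fold (adjusted p 0.0116) and clone 2 by 1.35-fold (adjusted p 0.00966), both against the same WT libraries. Between the clones the fold was 1.02, with an interval of 0.871 to 1.19 (adjusted p 0.914). Gene counts do not separate spliced from unspliced Xbp1 RNA, so they do not measure the cut made by IRE1.

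The size of the Xbp1 difference was steadier than its call. Leaving out 1 library at a time kept the log2 difference for knockout against WT between 0.39 and 0.45. The call did not hold when either WT library (adjusted p 0.232 for replicate 1 and 0.281 for replicate 2), clone 1 replicate 2 (0.0506) or either clone 2 library (0.0790 for replicate 1 and 0.0578 for replicate 2) was left out. For clone 1 it was lost without either WT library (0.0690 and 0.110), and for clone 2 without either WT library (0.0647 and 0.101) or clone 2 replicate 1 (0.143).

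**Figure D2:**
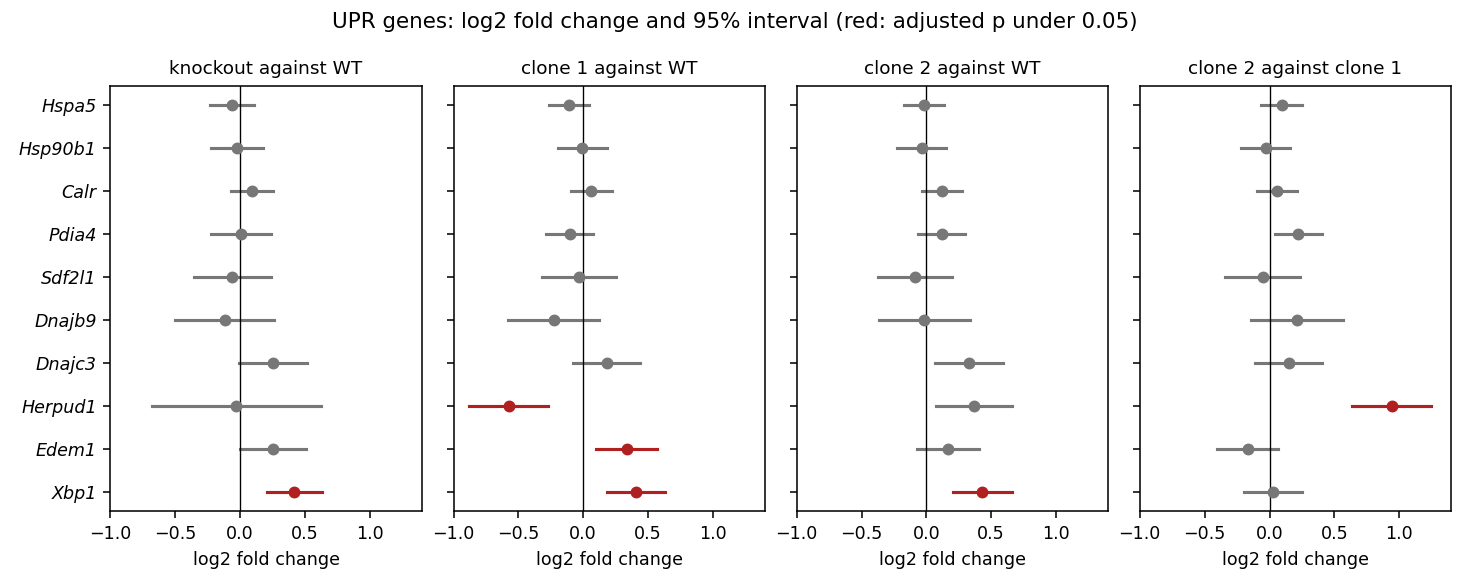
Each panel is 1 comparison and gives the log2 fold change of the 10 members (horizontal axis) with its 95% interval, in red where the adjusted p is under 0.05. The Xbp1 intervals lie above 0 in the 3 comparisons with WT, those of Hspa5, Hsp90b1 and Calr are narrow and span it, and the Herpud1 estimates for the clones lie on opposite sides.

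Herpud1 showed the largest difference between the clones among the members. Herpud1 (chromosome 8, 94386438 to 94395377, plus strand) encodes HERP, an ER membrane protein of the degradation machinery that both ATF6 and ATF4 raise. It was at 23.5 and 20.02 CPM in WT, at 13.6 and 15.6 in clone 1 and at 26.3 and 29.7 in clone 2, from counts of 304 and 271, 171 and 203, and 311 and 376. Clone 1 lay below WT and clone 2 above it, with no overlap among the 3 groups. Clone 1 fell to a fold of 0.671 (0.542 to 0.830, adjusted p 0.00898), a call lost without WT replicate 1 (log2 difference -0.46, adjusted p 0.119). Clone 2 was at a fold of 1.29 (1.05 to 1.58), which did not pass (adjusted p 0.0767) but did without either clone 1 library (adjusted p 0.0170 and 0.0168) and in a fit of only the WT and clone 2 libraries (0.0224). Clone 2 against clone 1 gave a fold of 1.92 (1.56 to 2.37, adjusted p 2.99e-04). That difference passed in all 12 alternatives tried, with log2 values of 0.85 to 1.05 and adjusted p-values up to 0.00488. Taken as 1 genotype, the libraries labelled knockout gave a fold of 0.979 (0.623 to 1.54, adjusted p 0.966). That fold averages clone 1 values below WT and clone 2 values above it. Of 19 tested genes within 500 kb of Herpud1, 3 passed between the clones, and these were lower in clone 2. Of all genes, 14.3% passed in that comparison, 6.62% higher and 7.71% lower. An antisense gene, Gm15890, overlaps Herpud1 with 0 exonic bases.

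The PERK-ATF4 list, which overlaps the amino acid response, also differed between the clones. In clone 1, 10 of its 16 genes were lower than WT and 1 was higher. In clone 2, 7 were higher and 2 lower, and clone 2 against clone 1 gave 10 genes, all higher in clone 2. Of all genes, 12.4% were called higher and 9.53% lower in clone 1, 10.1% and 7.81% in clone 2, and 6.62% and 7.71% between the clones. The list's median log2 difference was -0.57 in clone 1, 0.17 in clone 2 and 0.75 between the clones, beside 0.00 for all genes. The clone 2 count of 9 became 3 when WT replicate 1 or clone 2 replicate 2 was left out, and 4 when clone 2 replicate 1 was. The clone 1 and clone difference counts stayed within 1.5 times in every alternative, 9 to 12 in clone 1 and 9 to 14 between the clones.

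Atf4, the factor of this branch, was at 401 and 415 CPM in WT, at 302 and 307 in clone 1 and at 449 and 448 in clone 2. It fell in clone 1 by 0.42 ± 0.07 on the log2 scale (adjusted p 6.10e-04) and did not pass in clone 2 (0.14, adjusted p 0.225). Ddit3, which encodes CHOP, was at 49.8 and 52.3 CPM in WT, at 31.5 and 34.4 in clone 1 and at 65.4 and 69.1 in clone 2. Both genes thus had clone 1 lowest and clone 2 highest, with no overlap. Ddit3 fell in clone 1 by 0.63 on the log2 scale (adjusted p 4.17e-04) and rose in clone 2 by 0.40 (adjusted p 0.0120), the latter lost without any 1 of the WT or clone 2 libraries (adjusted p 0.0694 to 0.138). Trib3, a pseudokinase that CHOP and ATF4 raise, was at 75.9 and 82.3 CPM in WT, at 42.1 and 54.5 in clone 1 and at 107 and 116 in clone 2. It fell in clone 1 by 0.71 on the log2 scale (adjusted p 2.82e-04) and rose in clone 2 by 0.49 (adjusted p 0.00501), lost without WT replicate 1 (0.103) or clone 2 replicate 2 (0.0653). Clone 2 was above clone 1 by a log2 difference of 0.56 for Atf4 (adjusted p 8.20e-05), 1.03 for Ddit3 (5.19e-06) and 1.20 for Trib3 (2.41e-06), calls that held in all 12 alternatives.

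Members of the list differed among themselves. Asns, the asparagine synthetase gene, was at 1172 and 1106 CPM in WT, at 975 and 921 in clone 1 and at 1065 and 1067 in clone 2. It fell in clone 1 by 0.27 on the log2 scale (adjusted p 0.0140, lost without WT replicate 1 at 0.138) and its clone difference of 0.17 did not pass (adjusted p 0.135). Cebpb, which encodes a partner of ATF4 on the C/EBP-ATF element, was at 14.3 and 18.0 CPM in WT, at 4.28 and 4.07 in clone 1 and at 6.67 and 8.38 in clone 2. It was lower in all 4 libraries labelled knockout and was the list gene called for knockout against WT, at a log2 difference of -1.47 ± 0.28 (adjusted p 0.0161). Without WT replicate 1 or 2 that adjusted p was 0.129 or 0.217. Of the 16 genes, 5 held the C/EBP-ATF string in their promoter window, namely Chac1, Atf3, Nupr1, Slc7a11 and Vldlr.

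**Figure D3:**
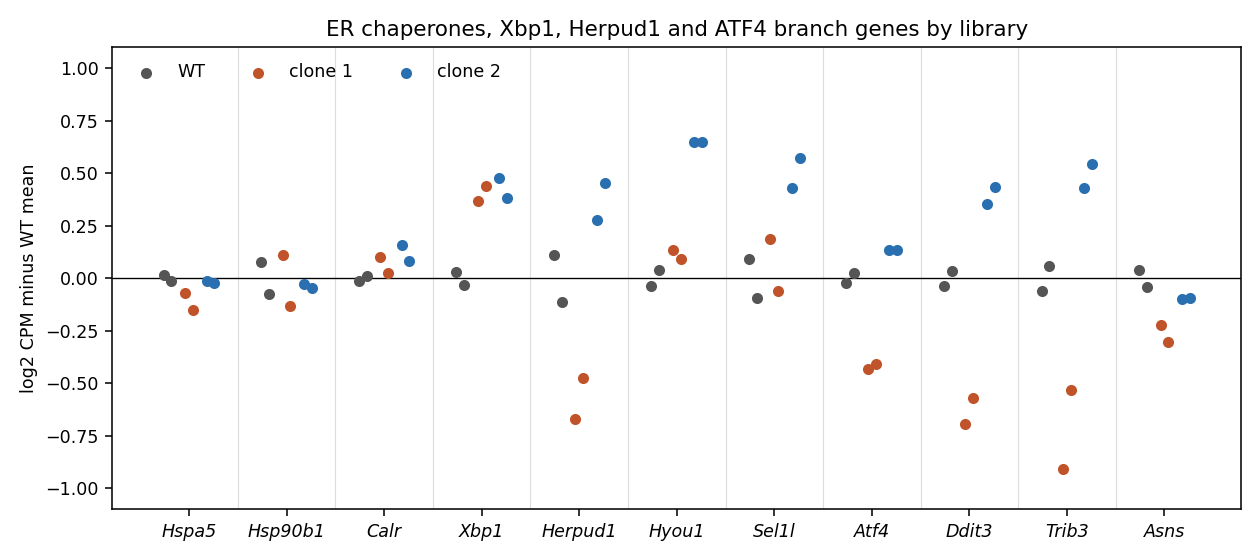
The plot gives the log2 difference of each library from the WT mean, on a linear log2 axis, for Hspa5, Hsp90b1, Calr, Xbp1, Herpud1, Hyou1, Sel1l, Atf4, Ddit3, Trib3 and Asns, with 2 points per group. Herpud1, Atf4, Ddit3 and Trib3 are below WT in clone 1 and above it in clone 2, Xbp1 is above WT in both clones, and Hspa5 stays near WT.

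The ER stress sensors and their proteases gave 0 of 6 genes called for knockout against WT, with 1 at an unadjusted p under 0.05 and 0 called by DESeq2, where 6.36% of all genes were called. Clone 1 also gave 0, with 2 at an unadjusted p under 0.05 and 0 called by DESeq2. The count of 0 held in 11 of 12 alternatives for knockout against WT and in 9 of 12 for clone 1. Clone 2 gave 1, higher, which was Ern1. This gene, which encodes IRE1, was at 16.8 and 18.9 CPM in WT, at 25.0 and 21.2 in clone 1 and at 25.2 and 23.6 in clone 2. All 4 libraries labelled knockout were above WT, at a log2 difference of 0.41 ± 0.13 (adjusted p 0.101). With the mean of both clones' contrasts in edgeR, Ern1 passed for knockout against WT (adjusted p 0.0225). In clone 1, Ern1 did not pass (log2 difference 0.37, adjusted p 0.0650). With the replicate number as a block, Ern1 and Mbtps1 both passed in clone 1. Clone 2 alone passed (log2 difference 0.45, adjusted p 0.0322), a call lost when either WT library (0.236 for replicate 1 and 0.0808 for replicate 2) or either clone 2 library (0.225 for replicate 1 and 0.0927 for replicate 2) was left out, and with DESeq2 (0.0873). For knockout against WT, Eif2ak3, which encodes PERK, gave a log2 difference of 0.24 (adjusted p 0.307) and Atf6 one of -0.06 (adjusted p 0.854). Atf6 was at -0.22 in clone 1 and at 0.08 in clone 2, and the clone difference of 0.30 did not pass (adjusted p 0.143). Clone 2 against clone 1 gave 1 of the 6 genes, higher, where 14.3% of all genes were called. That count stayed within 1.5 times in 4 of 12 alternatives.

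Among 19 other ER chaperones and folding enzymes, 2 passed for knockout against WT, 3 in clone 1 and 7 in clone 2, all of them higher than WT. The shares of all genes called in either direction were 6.36%, 21.9% and 17.9%, and the list's median log2 differences were 0.16, 0.04 and 0.26. Ero1l, listed under the older symbol of Ero1a and encoding the oxidase that recharges disulfide isomerases, rose by 0.55 ± 0.12 on the log2 scale (adjusted p 0.0284). Txndc5, a disulfide isomerase gene, rose by 0.47 ± 0.11 on the log2 scale (adjusted p 0.0364). Without WT replicate 1 or 2 both calls were lost (Ero1l 0.179 and 0.298, Txndc5 0.317 and 0.247). Hyou1, which encodes the exchange factor GRP170 of BiP, was at 194 and 205 CPM in WT, at 219 and 213 in clone 1 and at 313 and 313 in clone 2. It rose in clone 2 by 0.65 ± 0.08 on the log2 scale against WT (adjusted p 1.67e-05), and clone 2 was above clone 1 by 0.53 ± 0.08 (1.78e-04). In the whole list, 4 genes were higher in clone 2 than in clone 1 and 1 was lower. Of all genes, 6.62% were higher and 7.71% lower in that comparison. The list's count of 5 stayed within 1.5 times in 6 of 12 alternatives. The remaining targets of the ATF6 and XBP1 branches in this list that were set to be named did not pass for knockout against WT, with log2 differences of -0.14 for Pdia6 (adjusted p 0.303), 0.22 for Creld2 (0.313) and 0.07 for Manf (0.706). The clone 2 count of 7 was 3 when either WT library or clone 2 replicate 1 was left out, 4 when clone 2 replicate 2 was, and 11 when either clone 1 library was. The knockout count of 2 was 0 when either WT library was left out, and the clone 1 count of 3 was 1 without WT replicate 2.

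Over 16 other degradation genes, the median log2 difference was 0.14 for knockout against WT, 0.07 in clone 1 and 0.18 in clone 2, beside 0.00 for all genes. Sel1l, the partner of the ligase HRD1, was at 71.8 and 63.2 CPM in WT, at 76.7 and 64.5 in clone 1 and at 90.7 and 100.35 in clone 2, and rose in clone 2 by 0.50 ± 0.11 on the log2 scale (adjusted p 0.00335). That call was lost without WT replicate 2 (0.0867) or clone 2 replicate 2 (0.0606). Syvn1, the HRD1 gene, gave a log2 difference of -0.04 for knockout against WT (adjusted p 0.889). It was at -0.21 in clone 1 and at 0.11 in clone 2, and the clone difference of 0.31 did not pass (adjusted p 0.0739). Of the 16 genes, 2 passed between the clones, higher in clone 2, where 6.62% of all genes were called higher. That count stayed within 1.5 times in 10 of 12 alternatives.

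Of 20 genes of ER translocation and secretory transport, 1 passed, higher, for knockout against WT. Clone 1 gave 2 higher and 2 lower, clone 2 gave 1 higher and 2 lower, and the list's median log2 differences were -0.03, -0.04 and -0.03. All genes were called at 6.36%, 21.9% and 17.9%. Over the 12 alternatives these counts ranged from 0 to 4 for knockout, 1 to 7 for clone 1 and 1 to 5 for clone 2. Without either WT library they were 0, 1 and 1, without clone 1 replicate 2 they were 2, 7 and 5, the clone 2 count was 5 without clone 1 replicate 1, and it was 1 without either clone 2 library. Sec24d, a coat protein of ER export vesicles, was at 25.9 and 26.5 CPM in WT, at 41.2 and 36.2 in clone 1 and at 42.2 and 40.6 in clone 2. It rose by 0.61 ± 0.11 on the log2 scale (adjusted p 0.0114), lost without WT replicate 1 (0.179) or WT replicate 2 (0.143). Sec61b, a subunit of the translocation channel, was at 122 and 132 CPM in WT, at 80.8 and 106 in clone 1 and at 94.9 and 115 in clone 2, and fell in clone 1 by 0.45 ± 0.12 on the log2 scale (adjusted p 0.0116), lost without WT replicate 1 (0.0585) or WT replicate 2 (0.130). For Sec61b in clone 2, the log2 difference of -0.28 did not pass (adjusted p 0.114) but did in 5 of 12 alternatives. For knockout against WT, that of -0.36 did not pass (0.130) but did in 2 of 12. The heat shock genes of the cytosol and mitochondria gave 0 of 13 called for knockout against WT, with 2 at an unadjusted p under 0.05 and 0 called by DESeq2, where 6.36% of all genes were called. In clone 1, 3 of 13 were lower (Dnaja1, Hspa9 and Hsph1), where 9.53% of all genes were. Leaving out WT replicate 1 made this count 0, and leaving out WT replicate 2 or either clone 2 library made it 1. Between the clones, Hsph1 was higher and Hspa1a lower in clone 2, a count of 2 that was 1 without either WT library or clone 2 replicate 2, and 0 without clone 2 replicate 1. Hspa8, the constitutive cytosolic Hsp70 gene, gave a log2 difference of 0.01 (adjusted p 0.963).

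**Figure D4:**
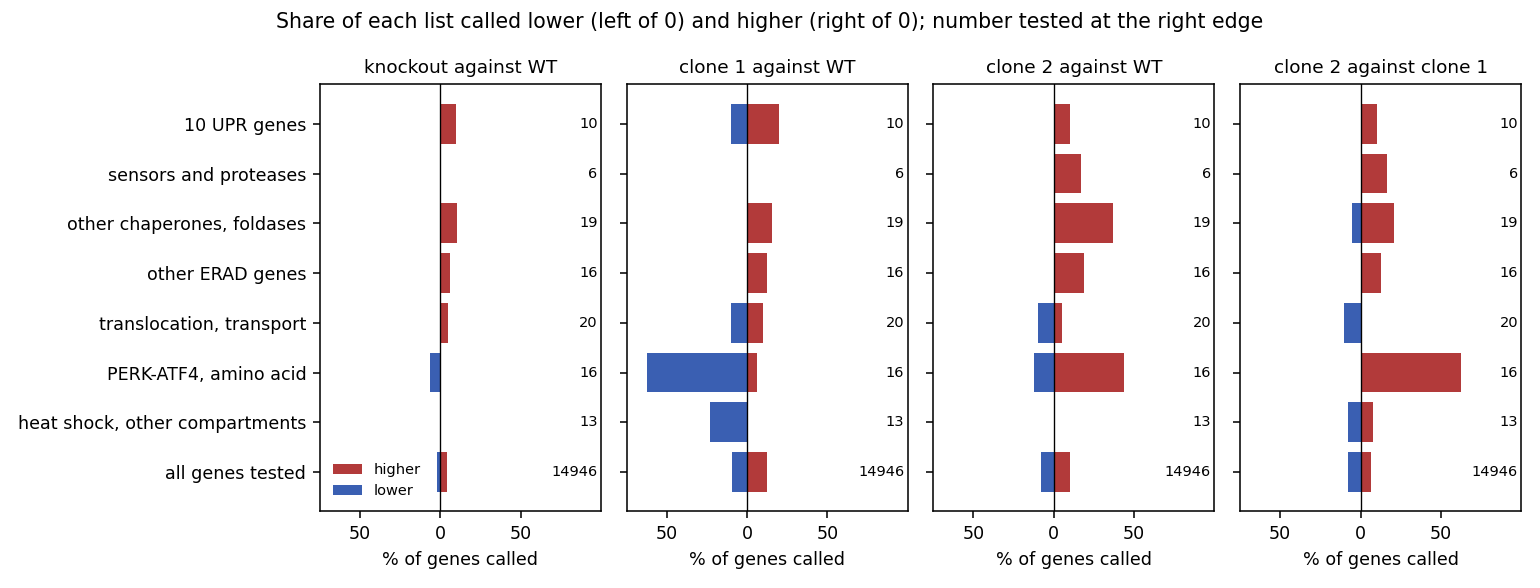
Bars give the percent of tested genes called higher (red, to the right of 0) and lower (blue, to the left) in each list and in all genes, with 1 panel per comparison and the number tested at the right. The PERK-ATF4 list is mostly lower in clone 1, at 10 of 16 genes, and mostly higher in clone 2 against clone 1, at 10 of 16, while the 10 members show at most 3 called genes in any comparison.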

How the data were processed

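The deposited files hold raw read counts per gene, whole numbers that the authors did not normalise, with 52535 gene entries and 5 HTSeq summary entries per library. The summary entries were left out of totals and tests. As shares of all reads they were 4.14% to 5.35% without a feature, 6.96% to 9.10% ambiguous, 15.6% to 16.6% aligned several times, 6.00% to 7.30% of low quality and 2.44% to 3.09% unaligned. Tools listed in the submitters' processing notes, with no roles, are HTSeq 0.9.1, HISAT2 2.1.0 and DESeq2 1.18.1, and the build is mm10. Total RNA was depleted of ribosomal RNA, per the labels' protocols. Not given in the sources used here are the annotation, strand setting and filters, so reads of overlapping or antisense genes cannot be separated. The day 0 and day 7 samples of E14 cells were not analysed here.

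Tests used edgeR 4.0.16 in R 4.3.3: TMM factors, filterByExpr on the 3 groups, the quasi-likelihood test, two-sided, with Benjamini-Hochberg adjustment over 14946 genes at 0.05. Knockout against WT treated both clones as 1 genotype, so 4 libraries of 2 clones count as independent. The clone comparisons came from a fit of 3 groups with a shared spread. All adjusted p-values in the text are edgeR's unless DESeq2 1.42.0 is named. RPKM used the union of exons in GENCODE M21 on GRCm38, and log2 CPM a prior count of 2. The fits were tested on simulated data. Figures were drawn with matplotlib 3.10.9.

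The rule for named genes took all 10 members, 15 set pathway genes, up to 3 genes per list with the smallest p for knockout against WT, and Bcat1. Not all of these are described, and 1 of them is not reported here. Chac1, Atf3, Nupr1, Slc7a11 and Vldlr were named for their promoter strings, and Hsph1 and Hspa1a for their calls, after the values were seen. The members and lists were chosen with earlier results of these data known. Alternatives were other size factors, DESeq2, 2 filters, a replicate block, each library left out in turn, and fits by the 4 libraries compared only or by the mean of both clones' contrasts. Their use on the lists was added after seeing the data.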

Additional observations from a re-analysis of the deposited data

Results flagged for a closer look

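For 9 of 46 named genes the effects of the clones against WT differed by a test of the difference itself, clone 2 against clone 1 in edgeR. Of all genes, 14.3% passed in that comparison. Some named genes were picked by p-values from these data, so the count is not read as a difference from all genes. Among the members the gene was Herpud1, at a log2 difference of 0.94 (adjusted p 2.99e-04). In the PERK-ATF4 list it was Atf4 at 0.56, Ddit3 at 1.03, Trib3 at 1.20 and Cebpb at 0.85, the last lost without clone 2 replicate 2 (0.68, adjusted p 0.170). Among other ER genes it was Hyou1 at 0.53, Sel1l at 0.44 and Txndc5 at -0.26. Sel1l was lost without clone 2 replicate 2 (adjusted p 0.143), and Txndc5 passed narrowly (adjusted p 0.0484) and was lost in 9 of 12 alternatives. The fibroblast and feeder marker Thy1 was at -1.88, with counts of 73 and 66 in clone 1 and 16 and 20 in clone 2. Over the 4 libraries labelled knockout, no named gene had a single library beyond Dixon's 95% critical value, and groups of 2 libraries were too small for that check. Where the clones lie far apart, the largest gap falls between them, so the check can hardly flag 1 library.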

How the results depend on the processing

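The Herpud1 difference between the clones passed in all 12 alternatives. The count of members called for knockout against WT was 1, and 0 to 1 with 1 library left out. It was 3 for clone 1 (0 to 3), 1 for clone 2 (0 to 3) and 1 between the clones (1 to 2). In a fit of only the 4 libraries compared, 3 members passed in clone 2. No called value changed its direction; sign changes of values near 0 that were not called are not counted. Over all genes, 951 passed for knockout against WT (79 to 948 with 1 library left out), 1752 with no filter beyond 1 count and 3226 by the mean of both clone contrasts. Clone 1 gave 3280 (1576 to 4310), clone 2 gave 2674 (1165 to 4191, and 4065 from only the 4 libraries), and the clones differed at 2141 (974 to 3155). The causes of these shifts were not tested. Groups of 2 libraries, and counts of 136 to 196 for Dnajb9, 171 to 376 for Herpud1 and 296 to 379 for Dnajc3, limit what can be called.

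Same-numbered libraries correlated at 0.05 (WT and clone 1), -0.01 (WT and clone 2) and 0.13 (both clones) in their deviations. These low values do not settle whether replicate numbers pair the samples. The share of ambiguous reads was lower in replicate 1 than in replicate 2 of every group. It was 8.40% against 8.73% in WT, 6.96% against 9.10% in clone 1 and 7.62% against 8.49% in clone 2. A shared effect of the replicate number was not tested beyond the block below. With the replicate number as a block, 0 members passed for knockout against WT (Xbp1 at adjusted p 0.0514), 3 passed in clone 2 (Xbp1, Herpud1 at 0.0374, Dnajc3 at 0.0449) and 2 between the clones (Herpud1, Pdia4 at 0.0253). Over all genes the block gave 646, 4410, 3685 and 3007 calls. The Txndc5 call for knockout against WT was lost (0.0657).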
